A study of Mus musculus with 42 samples.

Results

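Chromatin bound to lamin B1 (LMNB1) in mouse liver was compared between circadian times CT6 and CT30, which are 24 h apart and fall at the same hour of the light/dark cycle. The autosomes were divided into 24639 bins of 100 kb, and a bin was taken to be in a lamina-associated domain (LAD) when 50 kb or more of it was covered by the LADs of a library. A total of 728 bins were in a LAD in both CT6 libraries and in neither CT30 library (CT6-only bins, 2.95% of all bins). The reverse held for 60 bins, which were in a LAD in both CT30 libraries and in neither CT6 library (CT30-only bins, 0.244%). LADs of all 4 libraries held 2703 bins (shared bins, 11%), and 17873 bins were in no LAD of the 4. The other 3275 bins were in a LAD in some other combination of the libraries. There were thus 12.1 CT6-only bins for each CT30-only bin. This ratio rested on single libraries: it was 3.56 without CT6 replicate 2, 4.05 without CT30 replicate 2, 7.06 without CT30 replicate 1 and 15.6 without CT6 replicate 1.

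The series holds LMNB1 ChIP-seq from liver of wild-type C57Bl/6 mice, 14 libraries in all, with 2 from non-synchronized mice (NS) and 2 from each circadian time sampled at intervals of 6 h between CT0 and CT30. CT6 and CT30 mice were housed on a light/dark cycle, had been kept off chow for 24 h and then had free access to it from CT0. The time points therefore differ by 24 h in the time since feeding resumed as well as by 1 circadian cycle. Each library comes from the liver of 1 mouse, and the labels call the mice female in 2 fields and male in the growth protocol. The study's methods call them male. The labels list 1 input library per time point beside 2 LMNB1 libraries, so a difference between the inputs and a difference between CT6 and CT30 cannot be told apart. LAD calls hold no expression, so the liver label could not be checked with marker genes. The place of hepatocyte genes was examined instead, and all 38 autosomal genes of a hepatocyte list started in a bin that was in no LAD of the 4 libraries. Since 87.8% of all autosomal protein-coding genes did so, this is no check of the tissue.

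LADs are broad stretches of chromatin that contact the nuclear lamina, the meshwork of lamin filaments beneath the inner nuclear membrane, of which lamin B1 is a constituent. They are generally poor in genes, rich in AT and repressive, and many of the genes within them are silent. A part of the LADs is held in common by most cell types, and another part varies with cell type and state. In bulk liver a LAD call averages over all cells of the piece, so that contact in fewer cells and weaker contact in all cells cannot be told apart.

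Promoters of 4 genes are printed as examples from the 3 classes, from starts rich in CpG to a start with few. Each line gives the 250 bases before the gene start on GRCm38.p6, read from the RefSeq genome on the gene's strand from 5′ to 3′, with every CpG dinucleotide in capitals. Negr1, a neuronal adhesion gene, started in a CT6-only bin (chr3:156561544-156561793, plus strand, 19 CpG). Cadm2, encoding a synaptic adhesion molecule, also started in a CT6-only bin (chr16:67620909-67621158, minus strand, 10 CpG). Slc10a2, encoding the ileal bile acid transporter, started in a CT30-only bin (chr8:5105352-5105601, minus strand, 3 CpG). Adgrb3, an adhesion receptor gene of the brain, started in a shared bin (chr1:25829708-25829957, minus strand, 14 CpG).
Negr1: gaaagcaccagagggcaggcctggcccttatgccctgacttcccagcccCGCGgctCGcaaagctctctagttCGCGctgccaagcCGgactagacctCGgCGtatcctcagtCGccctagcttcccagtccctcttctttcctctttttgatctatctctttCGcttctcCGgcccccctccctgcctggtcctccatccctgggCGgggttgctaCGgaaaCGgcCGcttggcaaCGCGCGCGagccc
Cadm2: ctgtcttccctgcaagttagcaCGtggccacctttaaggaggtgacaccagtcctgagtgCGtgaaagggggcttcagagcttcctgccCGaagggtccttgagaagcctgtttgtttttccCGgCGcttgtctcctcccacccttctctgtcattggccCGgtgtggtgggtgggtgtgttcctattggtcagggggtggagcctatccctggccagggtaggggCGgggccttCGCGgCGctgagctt
Slc10a2: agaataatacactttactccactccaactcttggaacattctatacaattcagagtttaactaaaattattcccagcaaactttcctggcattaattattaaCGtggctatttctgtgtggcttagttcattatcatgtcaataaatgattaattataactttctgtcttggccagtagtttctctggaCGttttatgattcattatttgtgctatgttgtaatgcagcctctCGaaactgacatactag
Adgrb3: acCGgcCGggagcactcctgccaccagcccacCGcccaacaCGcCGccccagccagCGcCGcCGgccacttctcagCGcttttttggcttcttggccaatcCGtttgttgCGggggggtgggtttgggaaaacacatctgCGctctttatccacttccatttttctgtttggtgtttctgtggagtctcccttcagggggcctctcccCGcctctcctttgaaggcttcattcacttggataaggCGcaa

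LADs of CT6 replicate 1 and CT6 replicate 2 covered 100 kb and 63 kb of the bin in which Negr1 starts, and those of both CT30 libraries covered 0 kb. For Cadm2 the covered length was 100 kb in both CT6 libraries and 0 kb in both CT30 libraries. For Slc10a2 it was 0 kb in both CT6 libraries, 85 kb in CT30 replicate 1 and 94 kb in CT30 replicate 2. The start bin of Adgrb3 was covered over all 100 kb in each of the 4 libraries. Bins of a class were thus wholly covered for some genes and partly for others.

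Promoters of the genes in all 3 classes held few CpG. The median was 2 CpG in the 250 bases upstream of the 178 genes of CT6-only bins, 2 for the 32 genes of CT30-only bins and 1 for the 838 genes of shared bins. Over the 18259 genes with sequence that started in bins of no LAD, the median was 10. At least 10 CpG were present upstream of 21.9% of the CT6-only genes, 18.8% of the CT30-only genes and 10.6% of the shared genes, against 47.2% of all autosomal protein-coding genes. The promoters of Negr1, Cadm2 and Adgrb3 printed above belong to that CpG-rich minority.

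LADs covered 495.2 Mb of the autosomes in CT6 replicate 1 and 573.6 Mb in CT6 replicate 2. They covered 395.1 Mb in CT30 replicate 1 and 388.1 Mb in CT30 replicate 2. Both CT30 libraries lay below both CT6 libraries, without overlap. The mean was 534 ± 55.5 Mb at CT6 and 392 ± 4.98 Mb at CT30 (SD, n = 2), a difference of -142.8 Mb (exact two-sided permutation test, p = 0.333). With 2 mice against 2, the smallest p that this test allows is 0.33, so that no such comparison could pass 0.05. Each p is the share of divisions of the libraries that give a difference at least as large, and it does not measure the spread between mice.

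LAD bins held the start sites of 1532 protein-coding genes in CT6 replicate 1 and 2133 in CT6 replicate 2, and of 1330 and 1216 in CT30 replicates 1 and 2. The CT30 libraries again lay below the CT6 libraries. The mean was 1832.5 ± 425 genes at CT6 and 1273 ± 80.6 genes at CT30 (SD, n = 2), and the difference was -559.5 genes (exact two-sided permutation test, p = 0.333).

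The number and size of LADs overlapped between the time points. CT6 replicate 1 had 134 autosomal LADs and CT6 replicate 2 had 272, whereas CT30 replicate 1 had 134 and CT30 replicate 2 had 125. CT6 replicate 2 stood apart from the other 3 libraries and also had the smallest median LAD size. That median was 1.35 Mb in CT6 replicate 2, 2.87 Mb in CT6 replicate 1, 2.50 Mb in CT30 replicate 1 and 2.48 Mb in CT30 replicate 2. The difference in number was -73.5 LADs (exact two-sided permutation test, p = 0.667) and that in log2 median LAD size was 0.34 (exact two-sided permutation test, p = 1). Without CT6 replicate 2 the differences were -4.5 LADs and -0.21, so the sign of the size difference rested on that library.

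The LAD starts of each library lie on a grid, and its step was taken as the largest number of kb that divides all starts on whole kb. The step was 35 kb in CT6 replicate 1, 11 kb in CT6 replicate 2, 31 kb in CT30 replicate 1 and 46 kb in CT30 replicate 2. Libraries with a coarse step had fewer LAD bins across the series. NS replicate 1 had 3328 LAD bins at a step of 61 kb and CT0 replicate 1 had 4235 at 47 kb, whereas the 8 libraries of other times with a step of 4 to 19 kb had 5182 to 6525. The step therefore moved with the number of LAD bins, and its part in the difference between CT6 and CT30 was not tested. The nearest steps of the time points were 35 kb in CT6 replicate 1, with 4961 LAD bins, and 31 kb in CT30 replicate 1, with 3955. These are values of 1 mouse each, without a replicate check.

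**Figure D1:**
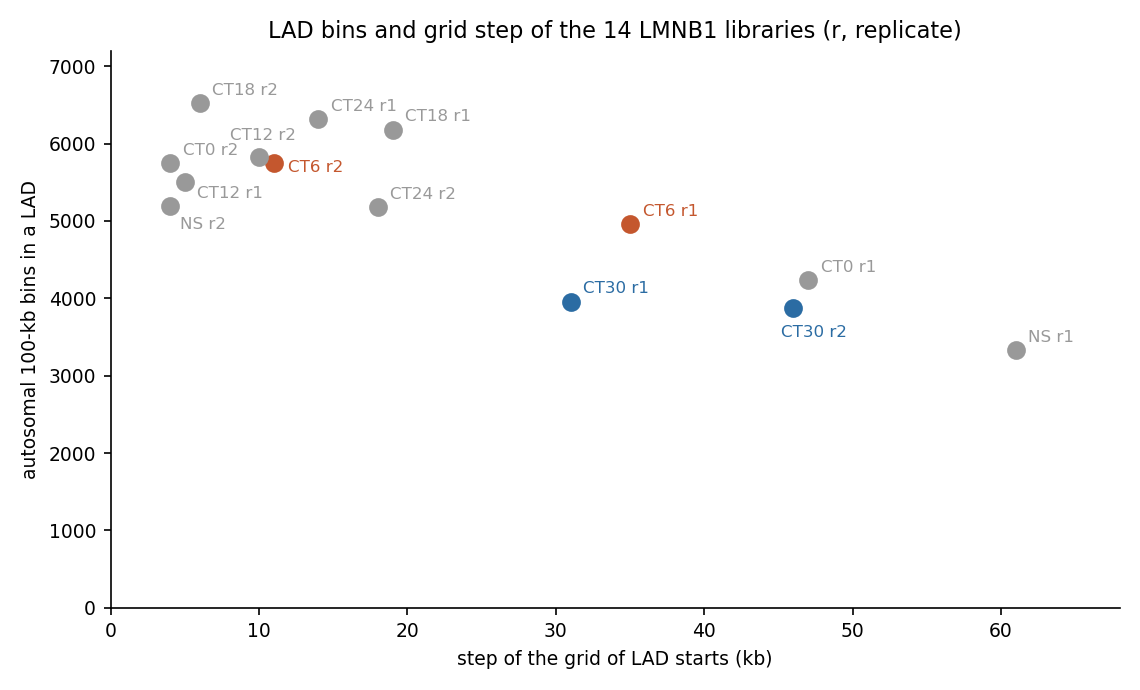
Autosomal 100-kb bins in a LAD (y axis) against the step of the grid of LAD starts in kb (x axis), with 1 point for each of the 14 LMNB1 libraries, CT6 in orange, CT30 in blue and other times in grey. CT30 replicate 1, at 31 kb with 3955 bins, lies below CT6 replicate 1, at 35 kb with 4961 bins.

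Among the 6766 bins in a LAD in at least 1 of the 4 libraries, LADs of CT30 were mostly also LADs of CT6. Of the 3074 bins in both CT30 libraries, 87.9% were shared and 1.95% were CT30-only. Of the 4351 bins in both CT6 libraries, 62.1% were shared and 16.7% were CT6-only. A further 920 bins were in both CT6 libraries and in 1 CT30 library, and 311 were in both CT30 libraries and in 1 CT6 library. LADs of 1 library alone held 1630 bins, of which 829 were in CT6 replicate 2, the library with the finest step of the 4, and 449 in CT6 replicate 1.

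**Figure D2:**
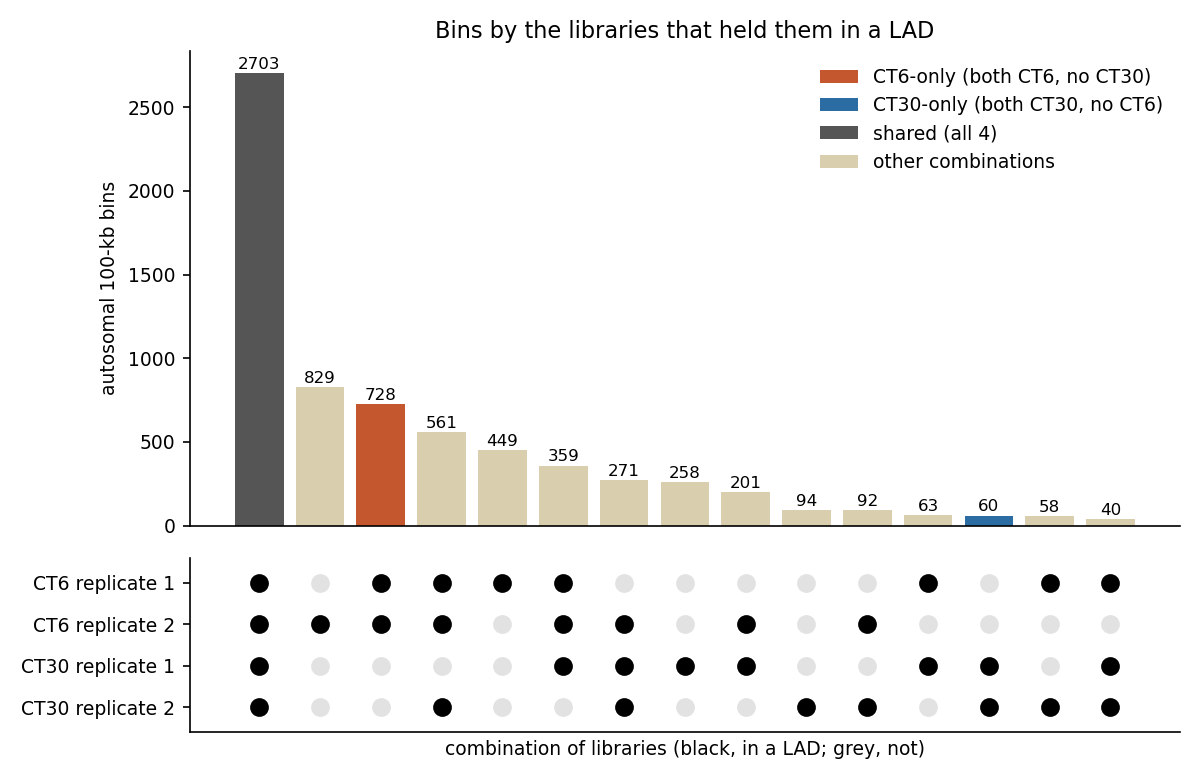
Number of autosomal 100-kb bins (y axis) for each combination of the 4 libraries that held the bin in a LAD, with black dots for the libraries that did and grey dots for those that did not. The shared bins (2703) exceed every other combination, CT6-only bins (728, orange) rank behind those in CT6 replicate 2 alone (829), and CT30-only bins (60, blue) are few.

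Pairs of libraries of 1 time point were more alike than pairs of different time points, in a design too small to tell this from other divisions of the libraries. The Jaccard index, the bins in a LAD in both libraries over those in either, was 0.685 between the CT6 libraries and 0.646 between the CT30 libraries. Between time points it was 0.550 for the replicates numbered 1 and 0.605 for those numbered 2. For the other pairs it was 0.614 between CT6 replicate 1 and CT30 replicate 2, and 0.573 between CT6 replicate 2 and CT30 replicate 1. Both pairs of the same time point were above all 4 pairs of different time points. The mean index was 0.665 within time points and 0.586 between them, a difference of 0.0797 (exact one-sided permutation test over the 3 divisions into pairs, p = 0.333, the smallest possible).

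Most CT6-only bins were far from the limit of 50 kb that defines the class. LADs covered 626 of the 728 bins over their whole length in both CT6 libraries and over no base in either CT30 library, which is 86.0%. The nearest LAD of either CT30 library lay a median of 1773 kb away, and it was farther than 46 kb, the coarsest step of the 4 libraries, for 667 bins (91.6%). It was 500 kb or more away for 541 bins (74.3%) and 35.4 Mb away at most. The 20 bins just inside the limit had 50 to 59 kb in the less covered CT6 library, and the 14 just outside it had 40 to 49 kb.

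CT30-only bins lay closer to the LADs of the other time point. Their median distance to a CT6 LAD was 109.5 kb, and 36 of the 60 bins (60%) were farther away than 46 kb. The distance was 500 kb or more for 10 bins, all of which are described below. LADs covered 41 of the 60 bins wholly in both CT30 libraries and over no base in CT6. Just inside the limit were 4 bins with 58 kb in the less covered CT30 library, and just outside it 3 bins with 46 to 48 kb.

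Consecutive bins of a class were joined into runs. CT6-only bins formed 92 runs with a median of 6 bins, 31 of which were 1 Mb or longer and held 513 bins (70.5%). In 32 runs with 407 bins, neither neighbouring bin was in a LAD of a CT30 library, so that these stretches were separate from CT30 LADs. Another 58 runs with 305 bins had a CT30 LAD on 1 side, and 2 runs with 16 bins had CT30 LADs on both sides. The CT30-only bins formed 25 runs with a median of 2 bins, of which 24 runs with 50 bins had a CT6 LAD on 1 side. Shared bins formed 93 runs with a median of 24 bins and a longest run of 11.5 Mb. The 2 classes differed in form, therefore, with most CT6-only bins in stretches apart from CT30 LADs and most CT30-only bins at the side of a CT6 LAD.

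Chromosomes differed in their share of CT6-only bins. CT6-only bins were most numerous on chromosome 14 (82 bins), chromosome 9 (66 bins) and chromosome 3 (63 bins). As a share of the bins in both CT6 libraries they ranged from 4 of 266 bins on chromosome 12 to 32.9% on chromosome 10 (53 of 161). Of the CT30-only bins, 17 were on chromosome 3, and chromosomes 1, 4, 9, 11, 17 and 19 had 0. The median position along the chromosome was 46.3% of its length for CT6-only bins, 44.0% for CT30-only bins and 43.5% for shared bins, against 50.0% for all bins. The first 10 Mb held 9.75% of the CT6-only bins, 10% of the CT30-only bins and 4.96% of the shared bins, against 7.71% of all bins. The last 10 Mb held 4.40%, 10% and 2.92% of the 3 classes, against 7.79% of all bins.

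The longest CT6-only run was 5.8 Mb on chromosome 14 (chr14:92800001-98600000), 7.97% of all CT6-only bins. It held the starts of Pcdh9, a protocadherin of neuronal adhesion, Klhl1, a neuronal actin-binding protein, Dach1, a transcriptional cofactor of organ development, and 4921530L21Rik. LADs covered all 5800 kb in both CT6 libraries and 0 kb in both CT30 libraries. The CT6 LADs that hold it were 10.955 Mb long in replicate 1 and 8.69 Mb in replicate 2. Those LADs also held a shared run (chr14:89900001-92400000), covered over 2500 kb in CT30 replicate 1 and 2468 kb in CT30 replicate 2. The CT6-only run was thus a part of longer CT6 LADs, with a CT30 LAD on 1 side. In the other 10 libraries at least 51 of its 58 bins were in a LAD, except NS replicate 1 with 0, which has the coarsest step of all (61 kb).

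Gene number varied among the other long CT6-only runs, from 1 to 22 in the 10 longest. A 3.5-Mb run on chromosome 8 (chr8:27500001-31000000) held only the start of Unc5d, a receptor for netrin, and was covered over 3455 and 3500 kb in the CT6 libraries and 0 kb in the CT30 libraries. A 1.9-Mb run on chromosome 16 (chr16:66100001-68000000) held the start of Cadm2 alone and had bins in a LAD in all 10 other libraries. A 1.9-Mb run on chromosome 17 (chr17:57500001-59400000) held Cntnap5c, of the contactin-associated family, Nudt12, a peroxisomal NADH pyrophosphatase, Pdzph1, Vmn2r120 and Gm21834, and it too had LAD bins in all 10 others. For these 2 runs, the CT30 libraries were the only ones of the 14 without a LAD bin. LADs of CT30 replicate 2 nonetheless reached 12 kb into the end of the chromosome 16 run and 14 kb into that of the chromosome 17 run. They began at 67988001 and 59386001, where the CT6 LADs went on.

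On chromosome 9 a 2.2-Mb run (chr9:90500001-92700000) held 8 genes, among them Zic4, a zinc finger factor of the developing brain, the phospholipid scramblase genes Plscr1, Plscr2 and Plscr4, and Plod2, a collagen lysyl hydroxylase. A LAD of CT30 replicate 1 reached 10 kb into its end and began at 92690001, where the CT6 LADs went on. A 2.1-Mb run on chromosome 5 (chr5:5700001-7800000) held Steap1, Zfp804b and Tex47, and a 1.5-Mb run on chromosome 4 (chr4:74400001-75900000) held Dmac1, an assembly factor of respiratory complex I. Both were covered over 0 kb in the CT30 libraries and had LAD bins in 8 of the 10 other libraries. A 1.7-Mb run on chromosome 3 (chr3:73800001-75500000) held Zbbx, Serpini2, a serpin known from pancreas, and Wdr49. It had LAD bins in 4 of the 10 other libraries, and the 3 bins at its end, where Serpini2 and Wdr49 start, were in a LAD in none of them.

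Clusters of related genes made up most of the genes in 2 of the 10 longest CT6-only runs. On chromosome 13 a run of 2.4 Mb (chr13:25300001-27700000) held 18 genes, most of them of the prolactin family, hormones of the pituitary and placenta. Of 26 prolactin genes, 17 started in CT6-only bins, 23 in LAD bins of CT6 replicate 1 and 20 in those of CT6 replicate 2, and 0 in LAD bins of either CT30 library. On chromosome 6 a run of 1.8 Mb (chr6:129600001-131400000) held 22 genes, among them Klra1, Klra2, Klra4 and Klra17, receptors of natural killer cells, with Styk1 and Ybx3. Of 26 killer lectin receptor genes, 17 started in CT6-only bins and 0 in LAD bins of the CT30 libraries. A LAD of CT30 replicate 2 covered 24 kb at the end of this run, and a shared run (chr6:131400001-133000000) followed it. The prolactin run and the killer lectin run each had LAD bins in 8 of the 10 other libraries. The shares, 65.4% in both families, stand beside 0.855% for all 20807 autosomal protein-coding genes. Neighbours in a cluster share their LAD, however, and are not independent. The prolactin list was also added after the classes were seen, so its share follows from that choice and is no support. How alike the members of these families are in sequence was not measured, and how their reads were placed was not tested.

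The cornified envelope genes on chromosome 3, which encode proteins of the outer skin barrier, were another cluster, picked after its values were seen. A run of 0.4 Mb (chr3:92400001-92800000) held 25 genes, including Ivl, Sprr1a, Sprr3 and Lce1a1. LADs covered it over all 400 kb in both CT6 libraries, 11 kb in CT30 replicate 1 and 0 kb in CT30 replicate 2. None of its 4 bins was in a LAD in any of the other 10 libraries. Of 36 Sprr and Lce genes 19 started in CT6-only bins, and 27, 35, 8 and 0 started in LAD bins of CT6 replicates 1 and 2 and CT30 replicates 1 and 2. These 4 bins, the 3 bins of Serpini2 and Wdr49 and 1 bin on chromosome 6 without a gene start were the only CT6-only bins that were in a LAD at CT6 and at no other time.

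Of the 178 genes in CT6-only bins, 10 were 500 kb or longer, against 218 of all 20807 autosomal protein-coding genes and 149 of the 18264 in bins of no LAD. They were Lrp1b, Celf2, Cadm2, Pcdh9, Negr1, Cntnap5c, Zfp804b, Unc5d, Kirrel3 and Edil3, several of which act in neuronal adhesion or axon guidance, and were named after their values were seen. The longest was Lrp1b, an endocytic receptor gene of 2058 kb, followed by Celf2 with 970 kb. Genes were placed by start site alone, so these are not lengths within CT6-only bins. Lrp1b spans chr2:40595246-42653624, but its CT6-only run begins at 42600001, and the rest of its body lay in a shared run. Most of the bodies of Celf2, Negr1 and Kirrel3 also lay outside their CT6-only runs. Of the 838 genes in shared bins 26 were that long, and of the 32 in CT30-only bins 0 were.

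The longest CT30-only run was 1 Mb on chromosome 3 (chr3:32800001-33800000). It held the starts of Usp13, a deubiquitinase, Pex5l, a regulator of neuronal pacemaker channels, and Ttc14, a tetratricopeptide protein. LADs covered it over 1000 kb in CT30 replicate 1 and in CT30 replicate 2, and over 0 kb in both CT6 libraries. The LAD extended from 32767001 to 34007000 in CT30 replicate 1 and from 32660001 to 33810000 in CT30 replicate 2. In the other 10 libraries none of its 10 bins was in a LAD. It was the only CT30-only run without a CT6 LAD beside it, and its 10 bins were those 500 kb or more from a CT6 LAD. The region was thus a LAD in both CT30 mice and in 0 of the 12 mice of other times.

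The second CT30-only run lay on chromosome 14 (chr14:43500001-44100000) and held 13 genes, among them Ear1 and Ang5, ribonucleases of the eosinophil-associated and angiogenin families, with Gm5799, Gm6526, Gm7324 and Gm8113. LADs covered all 600 kb in both CT30 libraries and 0 kb in both CT6 libraries. All 6 of its bins were in a LAD in CT18 replicate 2, and 0 were in the other 9 libraries. Many of its genes are members of multicopy families, and how their reads were placed was not tested.

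Shorter CT30-only runs included 2 stretches of the same LADs on chromosome 2. The LAD from 170562001 to 172329000 in CT30 replicate 1, and from 170522001 to 172270000 in CT30 replicate 2, held a CT30-only run at each end. At its start lay Dok5, an adaptor protein of receptor tyrosine kinases, and 4930470P17Rik. At its end lay Mc3r, a melanocortin receptor known for its part in energy balance. The Dok5 run was covered over 300 kb in both CT30 libraries, and the Mc3r run over 200 kb and 170 kb. Among the 10 other libraries, NS replicate 1 alone held either of them in a LAD. On chromosome 7, Olfr290, Olfr291 and Vmn2r65, receptors of odorants and pheromones, started in a run of 0.2 Mb that had LAD bins in 8 of the other libraries. The run of Slc10a2 on chromosome 8, named after its values were seen, had LAD bins in 5 of the other 10. The other 5 of the 10 longest runs held no gene start.

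**Figure D3:**
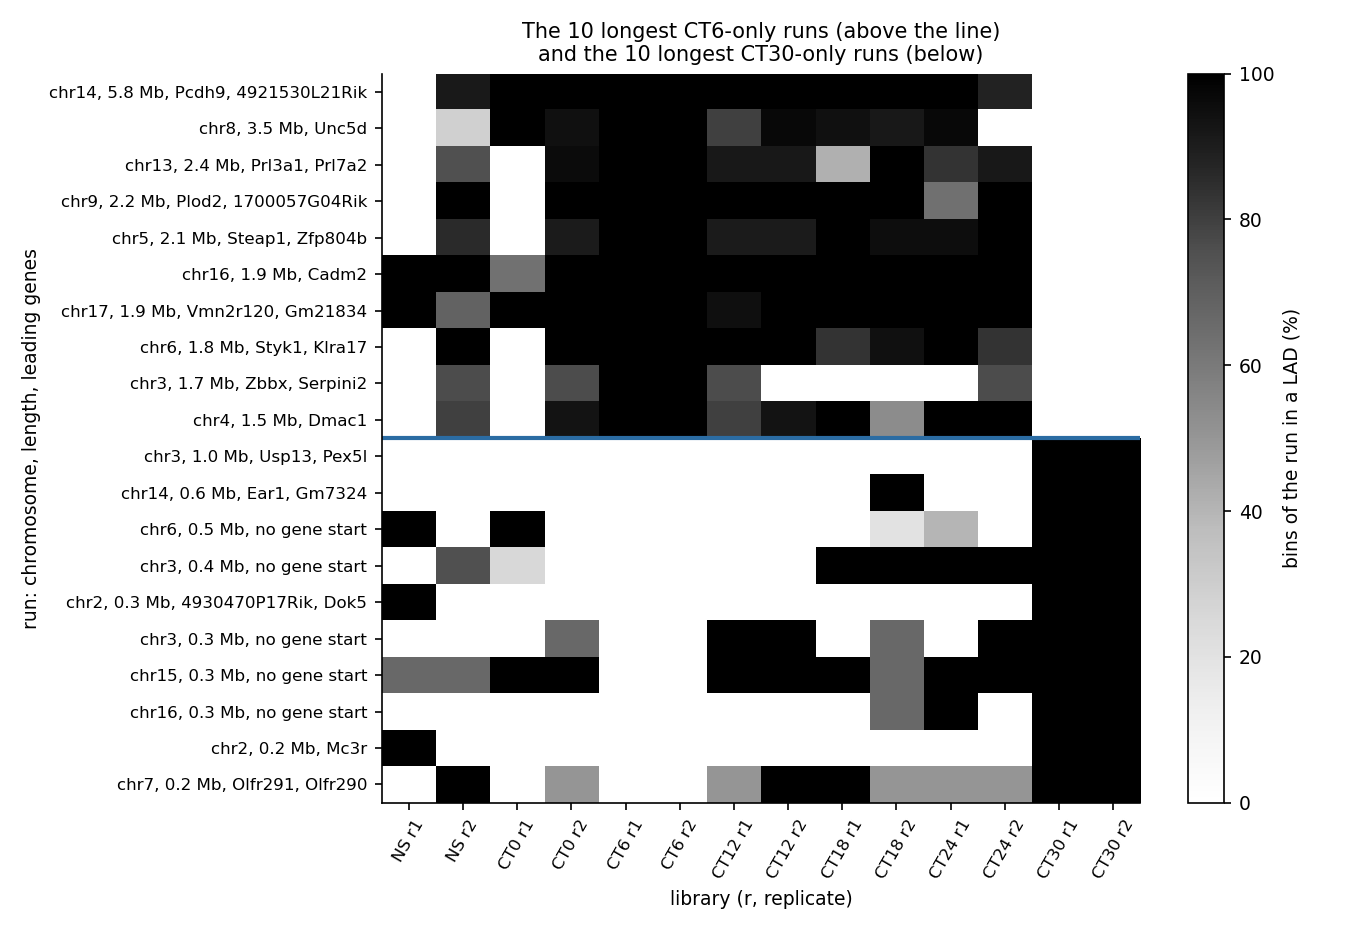
Share of the bins of a run in a LAD (grey scale, 0 to 100%) in each of the 14 LMNB1 libraries (columns) for the 10 longest CT6-only runs (rows above the blue line) and the 10 longest CT30-only runs (rows below), labelled by chromosome, length and leading genes. The CT6 and CT30 columns are fixed by the choice of the runs, and the run of Usp13 and Pex5l is white in all columns but CT30.

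The 10 libraries that did not choose the bins are given as a description. Of the CT6-only bins 27.3% were in a LAD in NS replicate 1 and 66.6% in NS replicate 2. At CT0 it was 46.4% and 82.6%, at CT12 76.9% and 80.9%, at CT18 78.4% and 83.4%, and at CT24 83.1% and 65.5% (replicate 1 and 2). In each library this was above the share of all autosomal bins, which ranged from 13.5% to 26.5% over these 10. The lowest values were those of the libraries with the coarsest steps, NS replicate 1 (61 kb) and CT0 replicate 1 (47 kb). The median CT6-only bin was in a LAD in 7 of the 10, and 358 bins (49.2%) were in at least 8. In both libraries of a time point were 132 CT6-only bins at NS, 284 at CT0, 511 at CT12, 515 at CT18 and 425 at CT24. At CT24, 6 h before CT30, 58.4% of the class was in a LAD in both mice.

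CT30-only bins were in few of these libraries. Their share in a LAD was 25% and 20% at NS, 25% and 23.3% at CT0, 16.7% and 26.7% at CT12, 31.7% and 48.3% at CT18 and 40% and 26.7% at CT24 (replicate 1 and 2). In NS replicate 2 and CT12 replicate 1 this was below the share of all bins (21.1% and 22.3%), and in CT0 replicate 2 both shares were 23.3%. The median CT30-only bin was in a LAD in 2 of the 10 libraries, 13 bins were in none and 4 were in at least 8. Of the 13 bins, 10 were the run of Usp13, Pex5l and Ttc14.

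Shared bins were in a LAD in most libraries. The share was lowest in NS replicate 1 (71.5%) and highest in CT18 replicate 2 (99.4%), and 1499 of the 2703 bins were in a LAD in all 10. At least 8 of the 10 held 2448 bins (90.6%). In every 1 of the 10 libraries the share of shared bins was above that of CT6-only bins, which in turn was above that of CT30-only bins.

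**Figure D4:**
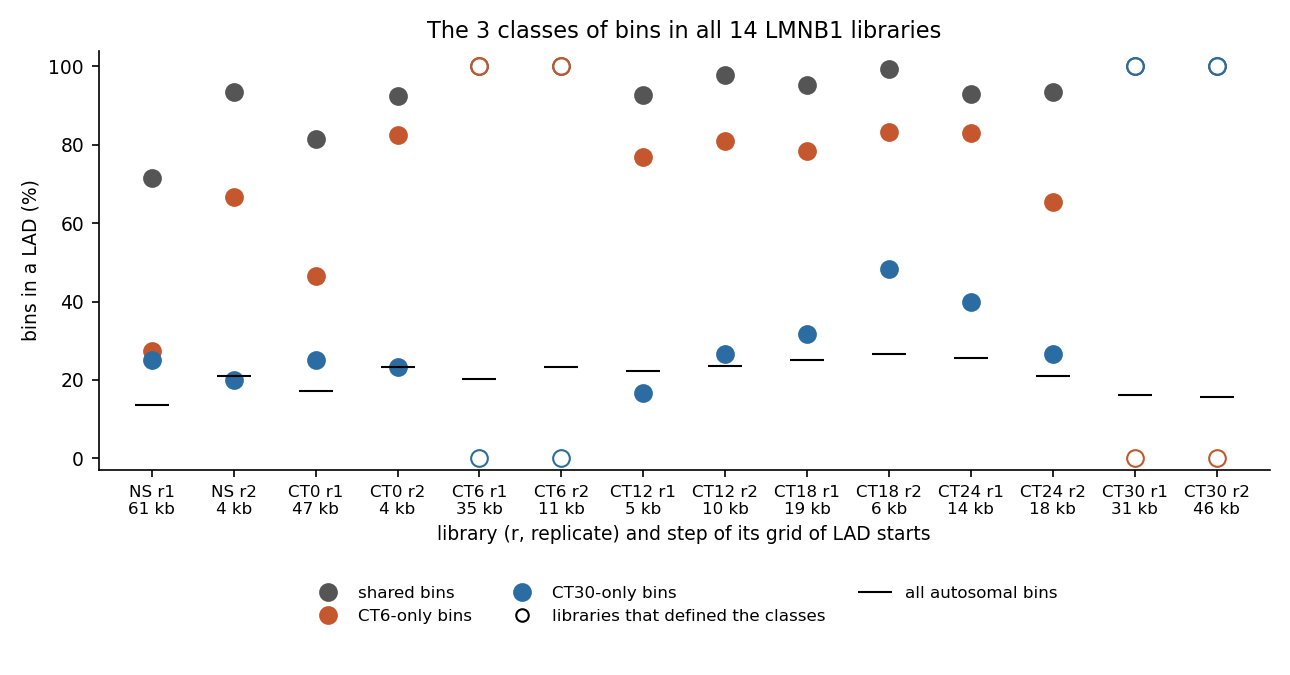
Share of CT6-only (orange), CT30-only (blue) and shared (dark) bins in a LAD (y axis, %) in each of the 14 LMNB1 libraries in order of time, with the step of each library below its name, open circles for the 4 libraries that defined the classes and black bars for all autosomal bins. CT6-only bins reach 83.4% in CT18 replicate 2 and fall to 27.3% in NS replicate 1, the library with the coarsest step.

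Median GC content and gene density were lower in each class than over all bins, least so in CT30-only bins. Median GC content was 38.2% for CT6-only bins, 40.3% for CT30-only bins and 37.3% for shared bins, against 41.4% for all bins and 43.0% for bins in no LAD. The interquartile ranges were 37.2 to 39.2% for CT6-only, 38.6 to 41.7% for CT30-only and 36.6 to 38.3% for shared bins. CT6-only bins had 2.45 genes per Mb, CT30-only bins 5.33 and shared bins 3.10, whereas all bins had 8.45. No gene started in 86.0% of the CT6-only bins, 68.3% of the CT30-only bins and 84.6% of the shared bins, against 59.1% of all bins. The higher gene density of the CT30-only bins rests on few bins, since 13 of their 32 genes lay in the run of Ear1 and Ang5. Neighbouring bins are not replicates, and no test was made between the classes.

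**Figure D5:**
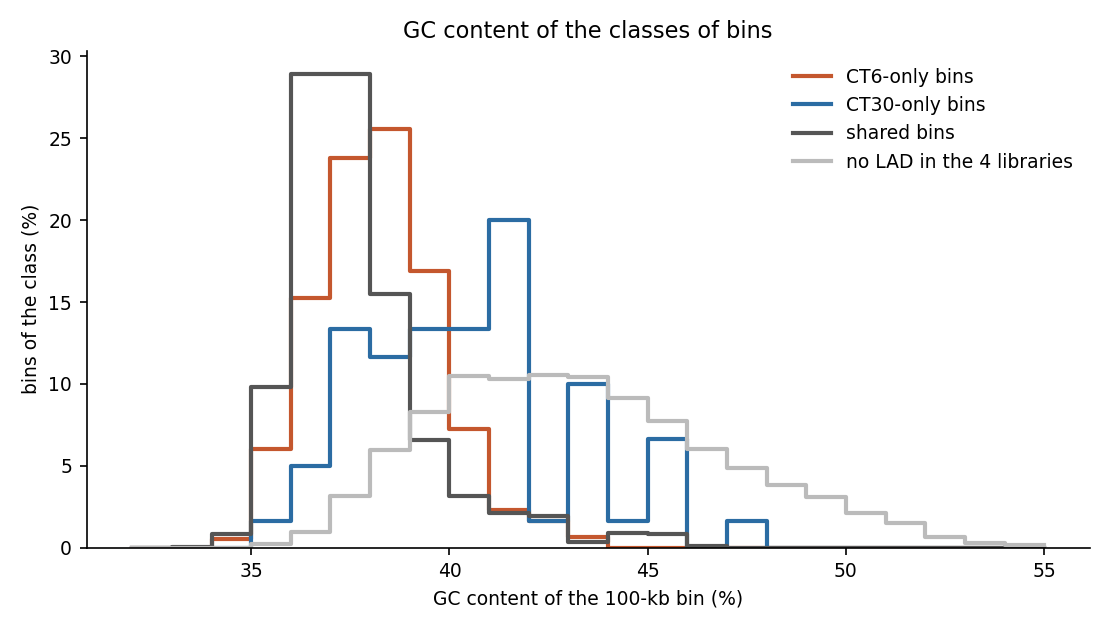
Share of the bins of a class (y axis, %) by GC content in steps of 1 percentage point (x axis, %), for CT6-only (orange), CT30-only (blue), shared (dark) bins and bins in no LAD of the 4 libraries (light grey). Shared and CT6-only bins peak near their medians of 37.3% and 38.2%, and the 60 CT30-only bins spread between those and the bins in no LAD, whose median is 43.0%.

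Repeats and a short motif were counted in the same bins. Bases masked as repeats made up a median of 38.9% of CT6-only bins, 38.8% of CT30-only bins and 44.1% of shared bins, against 31.7% over all bins. CpG dinucleotides numbered 5.32, 5.90 and 4.95 per kb in the 3 classes, against 7.79 over all bins. The motif GAGAGAGA, searched on both strands, had medians of 380, 390 and 350 per Mb in CT6-only, CT30-only and shared bins and 390 over all bins. Since 100% of the bins of every class held the motif, its presence did not tell the classes apart.

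Among the gene families, the receptors of smell were the largest group in LADs. Of 1128 olfactory receptor genes, 23 started in CT6-only bins (2.04%, of all genes 0.855%) and 229 in shared bins (20.3%, of all genes 4.03%). CT30-only bins held 3 (0.266%, of all genes 0.154%). These were Olfr291 and Olfr290 of the same run, with Olfr290 annotated more than once. In single libraries 409 and 744 started in LAD bins at CT6 and 269 and 401 at CT30 (replicate 1 and 2), so that CT6 replicate 2 stood apart here too. Vomeronasal receptor genes, which serve the sensing of pheromones, had 6 of 327 in CT6-only bins (1.83%), 1 in CT30-only bins (0.306%) and 117 in shared bins (35.8%). Several clusters were in LADs at both times. Shared bins held the starts of 22 of 35 bitter taste receptor genes (62.9%) and 23 of 64 defensin genes (35.9%), which encode antimicrobial peptides. Of both families, 0 started in CT6-only or CT30-only bins.

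Neuronal gene lists had more of their members in shared than in CT6-only bins, but so did all autosomal protein-coding genes. Over all autosomal protein-coding genes the shares were 0.855% in CT6-only and 4.03% in shared bins. The order of the 2 classes is therefore not particular to the neuronal lists, and each share is to be read beside that of all genes. Of 43 synaptic and axonal adhesion genes, 3 started in CT6-only bins (Epha3, an ephrin receptor, Negr1 and Unc5d), which is 6.98%, and 16 in shared bins (37.2%), such as Cntn4, Cntn5, Cntn6 and Cntnap2. For Epha3 a LAD of CT30 replicate 1 covered 29 kb of the start bin, below the limit of 50 kb. Of 90 cadherins and protocadherins Pcdh9 started in a CT6-only bin (1.11%, near the share of all genes) and 11 started in shared bins (12.2%), among them Cdh10, Cdh11, Cdh12 and Cdh18. Of 43 GABA and glutamate receptor genes 11 started in shared bins (25.6%), such as Gabra2, Gabra6 and Gabrb2, and 0 in the other classes. The potassium channel genes Kcnc2 and Kcnh8 started in CT6-only bins, and 4 of the 92 genes of that list in shared bins (4.35%, near the share of all genes). Of 385 genes of zinc finger proteins 4 started in CT6-only bins, Zfp180, Zfp551, Zfp606 and Zfp804b (1.04%, also near the share of all genes), and 1 in a shared bin, Zfp558.

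Genes of liver function and of the lamina were counted in the same way, beside the 87.8% of all autosomal protein-coding genes that started in bins of no LAD of the 4 libraries. All 98 cytochrome P450 genes, 22 major urinary protein genes and 20 lamina and nuclear envelope genes started in such bins. Of 64 transferase genes of drug conjugation 62 did so (96.9%). Of 60 serpin genes 51 did so (85%, below the share of all genes), with Serpini2 the only serpin in a CT6-only bin. Of 39 genes for carriers of organic ions 36 did so (92.3%), and 2, Slco4c1 and Slco6c1, started in shared bins.

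Clock genes, whose products drive and follow the circadian rhythm, differed widely in their distance to a LAD. Of 25 core clock and output genes 24 (96%) started in bins of no LAD of the 4 libraries, against 87.8% of all genes. The exception was Rorb, a nuclear receptor gene, whose start bin was covered over 100 kb in both CT6 libraries and in CT30 replicate 2 and over 0 kb in CT30 replicate 1. Of the 24, the start of Hlf lay closest to a LAD, at 0.259 Mb from the nearest CT6 LAD and 0.321 Mb from the nearest CT30 LAD, and that of Bhlhe40 followed at 0.294 Mb and 0.366 Mb. The nearest CT6 and CT30 LADs lay 1.43 Mb and 1.51 Mb from the start of Clock, 4.30 Mb and 4.56 Mb from Arntl, 2.68 Mb and 2.38 Mb from Per2 and 4.84 Mb and 5.40 Mb from Nr1d1. Per1 lay 2.47 Mb from a CT6 LAD and 20.9 Mb from a CT30 LAD. That CT6 LAD was in no CT6-only run, so no bin there was in a LAD in both CT6 libraries.

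The 5 longest shared runs held from 2 to 11 genes each, of very different lengths. The longest was 11.5 Mb on chromosome 15 (chr15:13400001-24900000), with Cdh9, Cdh10, Cdh12, Cdh18 and Acot10 as its 5 genes. It was covered over 11458 to 11500 kb in the 4 libraries. The second was 9.9 Mb on chromosome 1 (chr1:108300001-118200000) with 11 genes, among them Cntnap5a, Cdh7 and Cdh19. The third, of 7.8 Mb on chromosome 6, also had 11 genes, among them Ctnna2, Lrrtm1, Lrrtm4 and the genes Reg1, Reg2 and Reg3a of secreted lectins of pancreas and gut. The other 2 held Pcdh7 and G6pd2 on chromosome 5 (7.6 Mb), and Slitrk1, Slitrk5, Slitrk6 and Tpm3-rs7 on chromosome 14 (7 Mb). Cdh12 spans 1140 kb and Ctnna2 1098 kb, whereas Slitrk1 spans 5.36 kb, Reg3a 3.12 kb and Acot10 1.54 kb. Catenin, Lrrtm and Slitrk proteins act in cell adhesion or at synapses. All 70 bins of the Slitrk run were in a LAD in every 1 of the 14 libraries.

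The size of the classes depended on single libraries. Without CT6 replicate 1 the class of bins in a LAD at CT6 and not at CT30 held 1557 bins, and without CT6 replicate 2 it held 1177, without CT30 replicate 1 1087 and without CT30 replicate 2 1289. The reverse class held 100, 331, 154 and 318 bins in the same order. With the replicates numbered 1 alone, whose steps of 35 and 31 kb are closest, 1796 bins were in a LAD at CT6 and not CT30 and 790 the reverse.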

How the data were processed

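LMNB1 ChIP-seq LADs of 4 livers, 2 at CT6 and 2 at CT30, were compared, and the other 10 LMNB1 libraries served as a background. Inputs and RNA-seq libraries were not analysed here. The authors mapped ChIP and input reads to mm10 with Bowtie (2.25.0 in the submitters' processing notes), removed duplicates with Picard, and brought ChIP and input to equal depth, chromosome by chromosome, by down-sampling. They then called LADs in each mouse with EDD, using the average GapPenalty and BinSize of repeated runs. The deposited values are LAD starts and ends in base pairs, with no score or read count, so the read depth is unknown and no interval for counting error could be had.

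LADs were used as deposited. Bins of 100 kb were taken to be in a LAD at 50 kb of coverage or more. Genes were the 20807 autosomal protein-coding genes of GENCODE vM21 on GRCm38.p6 (the same build as mm10), placed by start site. Promoters were the 250 bases before that site in the RefSeq genome, found for 178 of 178 CT6-only, 32 of 32 CT30-only and 838 of 838 shared genes. Single values were compared by exact permutation tests, and class counts have no test. Analyses used Python 3.11.15 with NumPy 2.4.6, and the code was tested on simulated LADs. Named genes were those of the 10 longest runs of the CT6-only and CT30-only bins and of the 5 longest shared runs (6 of longest body where more than 6 start), and up to 4 members of each gene list in a class, of which 1 is not reported here. Exceptions are stated where they stand, and Slc10a2 and Adgrb3 were chosen for the sequences after their values were seen. The bins, gene lists and tests were chosen with earlier results of these data known, and the Sprr and Lce list and the prolactin list were added after the classes were seen. Alternatives were the limit and size of bins, their origin, chromosome X, LAD size, gaps, borders, each library left out, and a replicate block.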

Additional observations from a re-analysis of the deposited data

How the results depend on the processing

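Of 47 recomputed values of the tested results, 46 kept their direction. Those of the replicate block could not change, since they repeat the same differences of means. No p could pass 0.05 in any setting with so few libraries. The exception was log2 median LAD size, which was 0.34 in all 4 libraries and -0.21 without CT6 replicate 2, in a range of -0.21 to 0.89 with each library left out. LAD coverage differed by -182 to -104 Mb with each library left out. With the replicate number as a replicate block the differences were the same, at -142.8 Mb, -73.5 LADs, 0.34 and -559.5 genes, with exact sign-flip permutation p of 0.5, 1, 1 and 0.5, where 0.5 is the smallest possible with 2 pairs. Nothing in the labels says that a number pairs mice.

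Of 45 recomputed bin counts, 28 were within 1.5 times the reported count. With each library left out, CT6-only bins numbered 1087 to 1557 and CT30-only bins 100 to 331, since 1 library then decides a time point. Bins of 50 kb gave 1455 CT6-only, 121 CT30-only and 5420 shared bins, and bins of 500 kb gave 143, 14 and 547, as bin size alone changes the count. Setting aside bins within 100 kb of a LAD border left 17 CT30-only bins, and 495 CT6-only bins. Of alternatives chosen after seeing the data, runs of at least 5 bins left 21 CT30-only bins, and the replicates numbered 1 alone gave 1796 CT6-only and 790 CT30-only bins. Chromosome X added 0 CT6-only, 3 CT30-only and 0 shared bins.

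Precision was limited by 2 mice per time point and by a LAD caller step that differed between libraries. A filter on LAD score was not run, since the deposited LADs carry none.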

Other observations

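On chromosome X, which was left out of the comparison, LADs held 0 of 1711 bins in CT6 replicate 1, 95 in CT6 replicate 2, 100 in CT30 replicate 1 and 43 in CT30 replicate 2. The 2 mice of a time point thus differed by as much as the time points did. Both CT30 libraries and neither CT6 library held 3 of these bins, 0 bins were in both CT6 libraries and neither CT30 library, and 0 were in all 4.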
